A study of Meleagris gallopavo with 8 samples.

Results

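The loci of the turkey's small numbered chromosomes were compared with those of its large ones in one transcript annotation of breast muscle. A locus is the set of assembled transcripts to which the annotation gives the same locus identifier, and they need not all overlap. Loci were taken when they held at least 1 spliced transcript, that is, one of 2 or more exons. Of the 23108 loci of the annotation, 10805 were spliced. Of these, 3824 lay on chromosomes 11 to 30 and are called microchromosome loci, 5716 lay on chromosomes 1 to 10, and 1265 lay on other sequences (the sex chromosomes and unplaced pieces).

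The annotation was merged from 8 samples of pectoralis major, the breast muscle, of turkeys of the random-bred line RBC2 at 22 weeks of age. There were 4 PSE samples (pale, soft and exudative meat, here meat with low marinade uptake at 24h after slaughter) and 4 normal samples (high marinade uptake). All 8 share the line and the age, and the labels do not say whether each sample is a separate bird. Expression was not analysed here, and PSE and normal muscle were not compared, because the 8 columns of the count table carry no names that tie them to samples. Loci of 1 merged annotation are not replicates, so no test was made. Density, intron length, transcript length, exon number and the share with a variant are set against the spread between chromosomes. The other differences are given for the chromosome groups only.

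Bird genomes consist of a few large chromosomes and many very small ones, the microchromosomes. In the chicken, a close relative of the turkey, microchromosomes are known for many genes per unit of length, short introns, a high content of G and C and frequent recombination. Introns are the stretches that are transcribed and then cut out when the exons are joined, so their length sets how far apart the exons of a gene lie without changing the finished messenger RNA.

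By size, the label fitted most but not all of the chromosomes. The covered span, from the first to the last base of any exon on a chromosome, was 0.243 to 24.2 Mb on chromosomes 11 to 30 (median 10.5 Mb) and 19.4 to 204 Mb on chromosomes 1 to 10 (median 57.9 Mb). Of the 20 small chromosomes, 16 were shorter than every large one. Chromosome 9, with 19.4 Mb, was shorter than chromosomes 11, 12, 13 and 14 (24.2, 20.6, 20.1 and 20.8 Mb). Chromosomes 18 and 27 were covered over only 0.243 and 0.905 Mb and held 17 and 42 spliced loci, so their values rest on few loci.

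Spliced loci were packed more densely on the microchromosomes. Together, chromosomes 11 to 30 made up 22.8% of the covered span of the 30 chromosomes and held 40.1% of their spliced loci. The density was 17.5 spliced loci per Mb on chromosomes 11 to 30 and 7.73 per Mb on chromosomes 1 to 10, a ratio of 2.27. With single-exon loci counted too, the whole covered span held 36.6 loci per Mb on chromosomes 11 to 30 and 16.7 per Mb on chromosomes 1 to 10. By chromosome, the density of spliced loci was 11.1 to 69.8 per Mb on the small chromosomes (median 19.8) and 5.19 to 11.7 per Mb on the large ones (median 8.84). Of the 20 small chromosomes, 19 were denser than every large one. The exception was chromosome 11, the first inside the boundary, with 11.1 loci per Mb, and chromosome 10, the last outside it, had 11.7. Chromosome 9 had 10.3 per Mb and so stood with the large chromosomes in spite of its size.

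**Figure D1:**
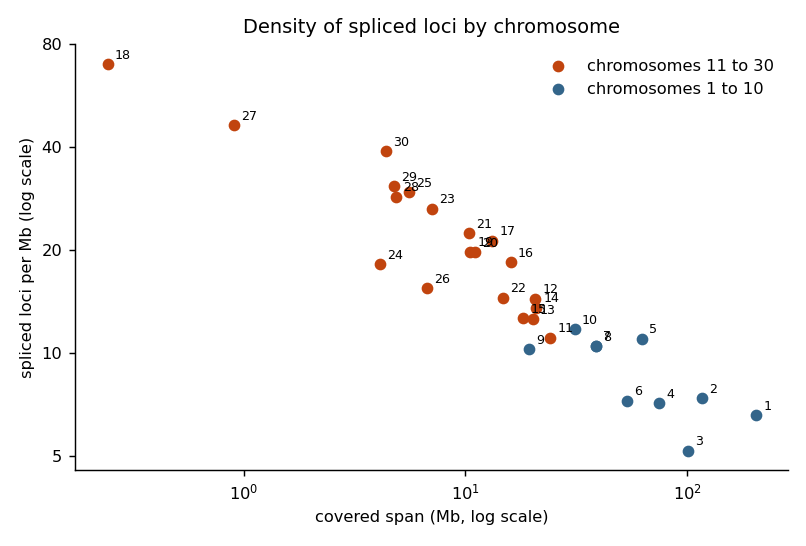
Spliced loci per Mb against covered span in Mb for each of the 30 chromosomes, both on log scales, with chromosomes 11 to 30 and chromosomes 1 to 10 in different colours. Density is higher on shorter chromosomes, from 5.19 per Mb on chromosome 3 to 69.8 per Mb on chromosome 18, and the groups meet at chromosomes 11 and 10.

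The contrast was smaller but of the same direction within the parts of chromosomes that held transcripts. Over windows of 100 kb with at least 1 exon, the density was 24.8 spliced loci per Mb on chromosomes 11 to 30 and 15.0 per Mb on chromosomes 1 to 10, a ratio of 1.65. Neighbouring spliced loci were a median of 7289 bases apart on the microchromosomes, and 19058 bases apart on the large chromosomes. Overlapping loci entered these medians as negative gaps, which were 18.5% of the gaps on microchromosomes and 14.4% on large chromosomes. The exons of spliced loci, summed over loci, came to 4.56% of the covered span of chromosomes 11 to 30 and 2.06% of that of chromosomes 1 to 10. Across the 30 chromosomes, density and covered span had a Spearman rho of -0.93 and a Pearson r of -0.92 with the span on a log10 scale, and r was -0.85 without the 2 chromosomes whose span lay farthest from the median. Within chromosomes 11 to 30 rho was -0.85, and within chromosomes 1 to 10 it was -0.67. Density has the covered span as its denominator, so a negative value is partly built in. All 30 points come from the same merged annotation, so these values only describe it.

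Microchromosome introns were shorter. The 29016 distinct introns of chromosomes 11 to 30 had a median of 615 bases (quartiles 290 to 1317), and the 42140 of chromosomes 1 to 10 a median of 1008 bases (quartiles 484 to 2263), a ratio of 0.610. Among introns of transcripts that match a reference transcript exactly, the medians were 596 and 983 bases. With 1 value for each locus, the median of its introns, they were 649.8 and 1111 bases. Introns under 100 bases made up 7.13% of those on microchromosomes and 4.17% of those on large chromosomes, and introns over 5000 bases made up 6.47% and 11.6%. No intron in the file is longer than 50000 bases, so longer introns are not seen on any chromosome. The longest intron of a locus had a median of 1816 bases on microchromosomes and 3248 bases on large chromosomes.

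The difference held chromosome by chromosome. The median intron was 348 to 818 bases on chromosomes 11 to 30 (median of the 20 values 582) and 791 to 1324 bases on chromosomes 1 to 10 (median of the 10 values 964). All but chromosome 11, with 818 bases, lay below every large chromosome, the lowest of which was chromosome 10 with 791 bases. Chromosome 9 had a median intron of 901 bases, longer than on every one of the small chromosomes. Across all 30 chromosomes, the median intron and the covered span had a Spearman rho of 0.97, and a Pearson r of 0.89 with the span on a log10 scale (0.93 without the 2 chromosomes farthest from the median). Within chromosomes 11 to 30 alone rho was 0.97, and within chromosomes 1 to 10 it was 0.64.

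**Figure D2:**
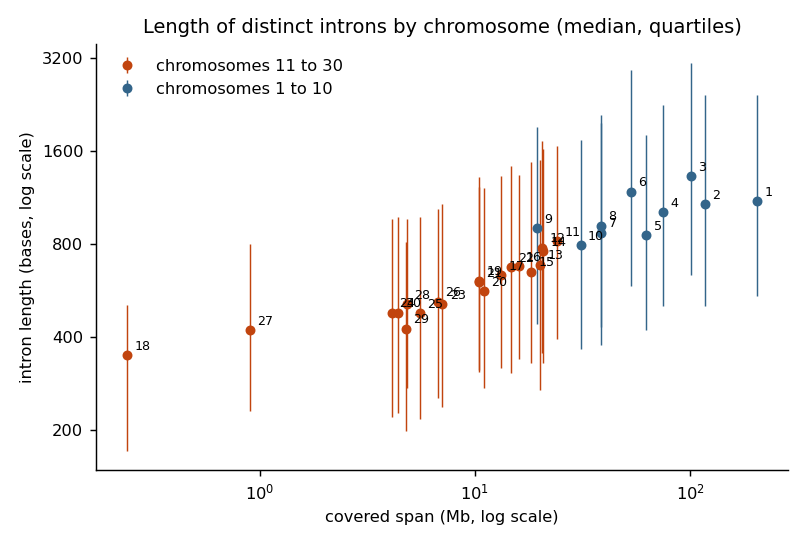
Length of distinct introns in bases against covered span in Mb for each chromosome, both on log scales, with points at the median and bars from the first to the last quartile. The medians lie between 348 bases on chromosome 18 and 1324 bases on chromosome 3, and the quartile ranges of neighbouring chromosomes overlap widely.

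First introns, which are often the longest in vertebrate genes, showed the same contrast. Among exact matches of at least 2 introns, the first intron had a median of 781 bases on microchromosomes and 1398 bases on large chromosomes. Later introns had medians of 576 and 936 bases. The contrast was there in loci of few and of many exons. In loci of 2 to 4 exons, the median over loci of the locus' own median intron was 687 bases on microchromosomes and 1275 bases on large ones. It was 625 and 1114 bases in loci of 5 to 9 exons, and 648 and 988 bases in loci of 10 or more.

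Internal exons and assembled transcripts, by contrast, differed little in length between the chromosome groups. Internal exons, those with an intron on both sides, had a median of 122 bases on chromosomes 11 to 30 (23552 distinct exons, quartiles 90 to 162) and 121 bases on chromosomes 1 to 10 (34148 exons, quartiles 89 to 162). The longest spliced transcript of a locus had a median of 1643 bases on microchromosomes and 1674 bases on large chromosomes, a ratio of 0.982. The chromosomes of both groups overlapped here, with medians of 718 to 1983 bases on the small ones and 1565 to 1994 bases on the large ones. Of the 20 small ones, 6 lay below every large one and 0 above all of them. Within chromosomes 11 to 30, this median and the covered span had a Spearman rho of 0.67. It was 0.54 without the 2 chromosomes farthest from the median span on a log10 scale. Within chromosomes 1 to 10 rho was -0.52 (-0.43 without the 2 farthest on that scale). With chromosome 9 counted as small and chromosome 18 left out, the ratio of transcript lengths was 1.00, on the other side of equality. The locus span, from first to last base, had a median of 7913 bases on microchromosomes and 11874 bases on large ones (ratio 0.666). In 26.5% of the microchromosome loci and 26.9% of the others, the span included stretches that lie in no assembled transcript, neither as exon nor as intron. Without these stretches the medians were 7272.5 and 10830.5 bases (ratio 0.671). Exons filled a median of 28.0% of the span of a locus on microchromosomes and 18.4% on large chromosomes, and 30.3% and 20.01% without these stretches.

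**Figure D3:**
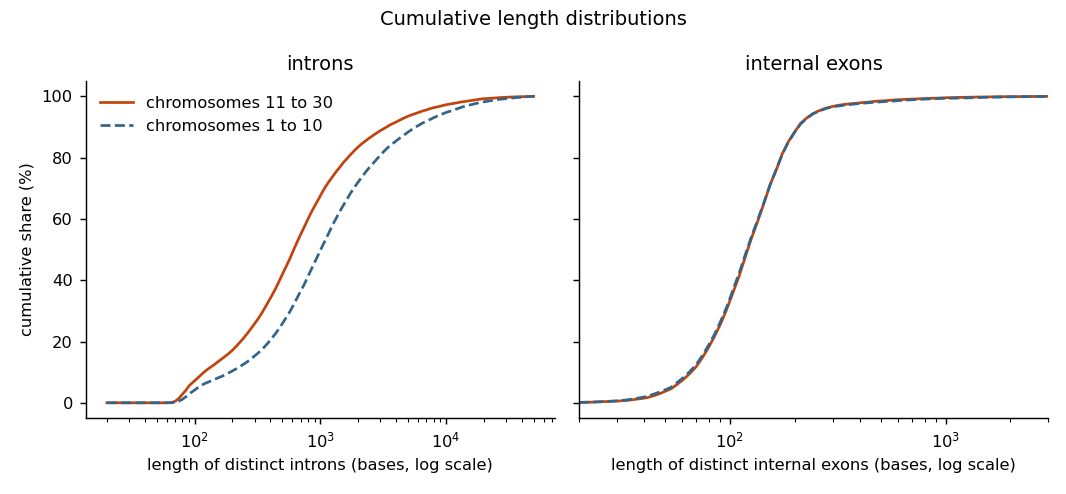
Cumulative share, in percent, of distinct introns (left) and distinct internal exons (right) up to a given length in bases on a log scale, for chromosomes 11 to 30 (solid) and 1 to 10 (dashed). The intron curves are apart, with medians of 615 and 1008 bases, and the exon curves lie on each other, with medians of 122 and 121 bases.

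The number of exons was also close. The longest chain of a locus averaged 7.35 exons on microchromosomes and 7.19 on large chromosomes, with medians of 6 and 5. By chromosome the mean was 3.88 to 8.05 exons on the small chromosomes, lowest on chromosome 18, and 6.60 to 7.69 on the large ones. Within chromosomes 11 to 30, this mean and the covered span had a Spearman rho of 0.59. It was 0.48 without the 2 chromosomes farthest from the median span on a log10 scale. Within chromosomes 1 to 10 rho was -0.33 (-0.62 without the 2 farthest on that scale). Loci of 10 or more exons made up 25.9% of the microchromosome loci (exact 95% interval 24.5 to 27.3%) and 24.4% of the others (23.3 to 25.6%). These intervals, like all below, cover counting error only.

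The loci with the most exons on a single transcript are given next. Here and below, the exon number of a locus is that of its transcript with the most exons, while its span and introns are those of the whole locus, which can hold further exons. STAB1, a scavenger receptor, had 59 exons on its 1 transcript on chromosome 14 from 360210 to 402854, minus strand, with a median intron of 508 bases. MTOR, the kinase that couples nutrients to growth, had up to 57 exons on a transcript on chromosome 23 from 4303113 to 4363811, minus strand, with a median intron of 437 bases. SPTAN1, a spectrin of the membrane skeleton, had up to 55 on chromosome 19 from 5310487 to 5354169, plus strand, with a median intron of 454 bases. PI4KA, a lipid kinase, had up to 54 on chromosome 17, where its locus spans 56231 bases. A locus named Q2PP39_MELGA also had up to 54, on chromosome 12 from 10026903 to 10164469, minus strand. On the large chromosomes, the named loci with the most exons on a transcript were HERC2 with 63, VWF with 49 and USP24 with 47. Their median introns were 593 bases in HERC2, 1517.5 bases in VWF and 350 bases in USP24. The order differs by the distinct introns of a locus, of which HSPG2 with USP48 had 87 and MACF1 72, against 58 in STAB1.

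Loci of very long span were rarer on microchromosomes. A span of over 100000 bases was found in 53 of 3824 microchromosome loci (1.39%, exact 95% interval 1.04 to 1.81%) and in 187 of 5716 on large chromosomes (3.27%, 2.83 to 3.77%). Of these, 38 of the 53 and 125 of the 187 included stretches in no assembled transcript. Without these stretches, 31 microchromosome loci were over 100000 bases (0.811%, 0.551 to 1.15%), and 119 on large chromosomes (2.08%, 1.73 to 2.49%).

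In 4 of the 5 longest named spans on microchromosomes, such stretches made up most of the span. The locus that carries the name of the microRNA gene MIR3187 spans 506558 bases on chromosome 30, of which 91.6% lies in no transcript. The same share was 72.0% of the 382323 bases of a locus named Q64I67_MELGA on chromosome 20. It was 97.4% of the 323285 bases of LPP, a protein of cell adhesion sites, and 91.5% of the 317346 bases of CEP250, a centrosome protein. CDH13, a cadherin, spans 279446 bases on chromosome 13 from 16161694 to 16441139, plus strand, of which 17.97% lies in no transcript. Its introns had a median of 22413 bases, and the longest had 47063 bases. On the large chromosomes, DMD, the dystrophin gene, spans 761091 bases and EXOC4, of the complex that tethers vesicles to the cell membrane, 421781, with 27.2% of DMD and 56.6% of EXOC4 in no transcript.

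Variant transcripts (class j) use at least 1 known splice junction but are not identical to the known transcript. A variant was found in 1681 of 3824 microchromosome loci (44.0%, exact 95% interval 42.4 to 45.5%) and in 2376 of 5716 loci of large chromosomes (41.6%, 40.3 to 42.9%), a difference of 2.39 percentage points. The intervals overlap, and so did the chromosomes, with 29.4 to 50% on the small ones and 38.8 to 46.2% on the large ones. Overlap of separate intervals does not show that the shares are equal, and the difference itself was not tested. With loci weighted alike by exon number the difference was 1.46 percentage points. At least 4 variants stood in 4.08% of microchromosome loci and 4.15% of the others.

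The share with a variant differed far more with exon number than with chromosome group. Exon number is taken from the same transcripts, and a transcript of more exons has more junctions that can differ. The rise with exon number may thus be partly built in. In loci of 2 to 4 exons it was 17.1% on microchromosomes (15.3 to 19.1%) and 16.2% on large chromosomes (14.7 to 17.7%). In loci of 5 to 9 exons it was 54.8% (52.0 to 57.5%) and 51.3% (49.0 to 53.6%). In loci of 10 or more exons it was 72.2% (69.3 to 74.99%) and 72.6% (70.1 to 74.9%).

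**Figure D4:**
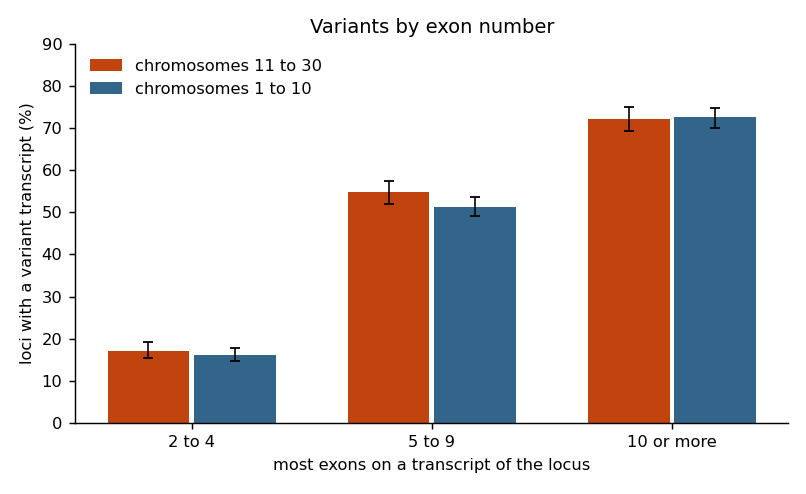
Share of spliced loci, in percent, with at least 1 variant transcript, by the most exons on a transcript of the locus, for chromosomes 11 to 30 (left bar of each pair) and 1 to 10 (right bar). Bars carry exact 95% binomial intervals. The shares range from 16.2 to 72.6% over exon numbers, and the intervals of the 2 bars overlap within each pair.

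The microchromosome loci with the most variants came from genes of different roles. A locus on chromosome 23 from 6821810 to 6868463, plus strand, had 14 variants among 19 transcripts and carried the names of both HSPG2, the matrix proteoglycan perlecan, and USP48, a deubiquitinating enzyme. MACF1, which links actin filaments to microtubules, had 10 among 19 on chromosome 25 from 5151166 to 5234632, plus strand. KIF1B, a motor protein, had 10 among 13, CDK5RAP2, a centrosome protein, 10 among 14, and KCTD20 10 among 16. None of these 5 loci held an exact match to a reference transcript. Of all microchromosome loci, 1141 of 3824 (29.8%) held one, so most loci lack one.

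Loci with 2 or more gene names were 120 of 3824 on microchromosomes (3.14%, exact 95% interval 2.61 to 3.74%) and 91 of 5716 on large chromosomes (1.59%, 1.28 to 1.95%). One is NDUFB5 with USP13 on chromosome 11, a subunit of respiratory complex I and a deubiquitinating enzyme. PXN and RPLP0 on chromosome 17, a focal adhesion protein and a ribosomal protein, are a further pair. Exon numbers and spans of such a locus belong to no single gene. Spliced loci that overlapped any other locus, on either strand, were 37.7% on microchromosomes (36.2 to 39.3%) and 33.6% on large ones (32.4 to 34.8%). Overlap with a spliced locus of the other strand was found in 28.8% of microchromosome loci (27.4 to 30.3%) and in 24.3% of the others (23.2 to 25.4%).

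Transcripts lying inside introns (class i) were more frequent on microchromosomes. They were 1540 of 14967 transcripts of all classes on chromosomes 11 to 30 (10.3%, exact 95% interval 9.81 to 10.8%) and 1489 of 22755 on chromosomes 1 to 10 (6.54%, 6.23 to 6.87%). Per Mb of non-exonic sequence within spliced loci, there were 30.7 on microchromosomes and 12.9 on large chromosomes. These values were 37.0 and 15.2 when stretches in no transcript were left out of that sequence. All class i transcripts of a group were counted, and whether each lies within that sequence was not checked. Most had 1 exon (1376 of 1540 on microchromosomes and 1399 of 1489 on large ones). Transcripts with no class letter made the opposite difference, with 20.7% on microchromosomes and 25.5% on large chromosomes. Exact matches made up 8.10 and 7.93% of transcripts.

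Genes of known roles in muscle were located next. Lists of genes of shared function were assigned to chromosomes through spliced exact, contained or variant transcripts that carry the gene name. Of 6611 such names on the 30 chromosomes, 2713 stood on microchromosomes (41.0%, exact 95% interval 39.8 to 42.2%). Among the 12 lists, 7 lay above this share and 5 below, and 11 had intervals that include it. Genes that lie next to each other are counted separately here. So are genes that share a locus, as SDHA and FH of the mitochondrial list do. The members of a list are thus not independent draws, which the intervals assume. Whether an interval includes the share of all named genes is therefore a description and not a test of the list. Proteasome and ubiquitin genes stood at 31 of 58 (53.4%, 39.9 to 66.7%) and mitochondrial energy metabolism genes at 20 of 68 (29.4%, 19.0 to 41.7%). With chromosome 9 counted as small and 18 left out, 5 of the 12 lay above and 7 below. Below, the up to 3 microchromosome loci of a list with the most exons are described, beside the one with the most exons on the large chromosomes for some lists.

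**Figure D5:**
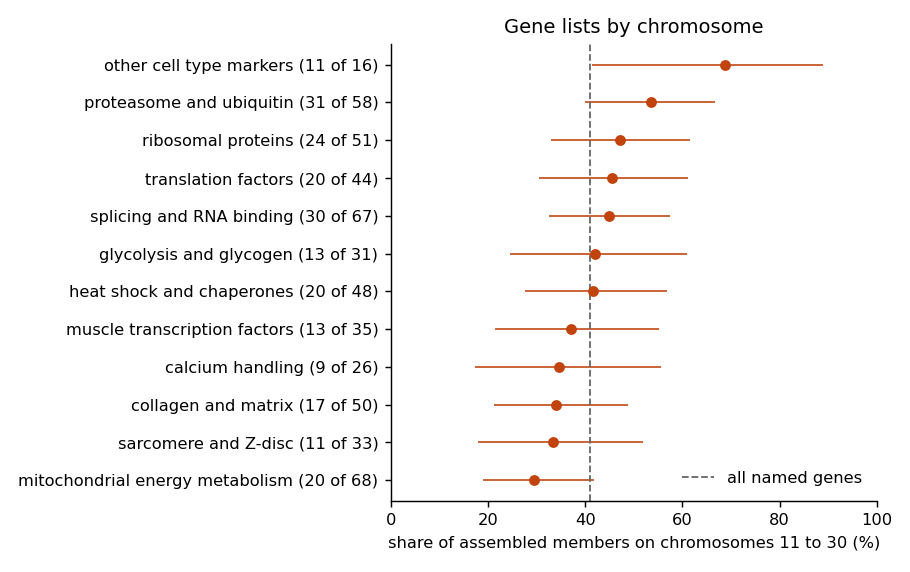
Share, in percent, of the assembled members of each gene list that lie on chromosomes 11 to 30, with exact 95% binomial intervals and the numbers of members beside the names. The dashed line marks the 41.0% of all named genes, and it lies within the interval of every list but the other cell type markers, whose lower limit of 41.3% is just above it.

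Of 33 located sarcomere and Z-disc genes, 11 stood on microchromosomes (33.3%, exact 95% interval 17.96 to 51.8%), and 32 of the 68 symbols searched were not found under a spliced transcript of these classes. Their assembly is the only check of the tissue made here, since levels were not analysed. UNC45B, the chaperone of myosin, had 19 exons within 8679 bases on chromosome 21 from 4842853 to 4851531, minus strand, and exons filled 36.2% of it. CAPZA1, which caps actin filaments, matched its reference exactly with 10 exons on chromosome 28, and a single intron of 35702 bases made up most of its 41838 bases. PDLIM7, a PDZ and LIM domain protein, shared a locus on chromosome 15 with DDX41, an RNA helicase. On the large chromosomes, MYOM1, the M-band protein myomesin, had up to 37 exons on a transcript and a span of 109634 bases on chromosome 3, with a median intron of 1454 bases.

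Calcium handling genes stood at 9 of 26 (34.6%, 17.2 to 55.7%). CACNA1S, the voltage sensor of excitation-contraction coupling, had up to 41 exons on a transcript and a span of 29336 bases on chromosome 28 from 252583 to 281918, plus strand, with a median intron of 399 bases and 4 variants among 6 transcripts. HOMER2, a scaffold protein, matched its reference exactly with 8 exons on chromosome 12. TMEM38A, a potassium channel of the sarcoplasmic reticulum, shared a locus with SIN3B, a transcriptional corepressor, on chromosome 30. On the large chromosomes, RYR3, a calcium release channel, had up to 30 exons on a transcript and a span of 165521 bases on chromosome 5, with a median intron of 915 bases.

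Glycolysis and glycogen genes stood at 13 of 31 (41.9%, 24.5 to 60.9%). PHKB, a regulatory subunit of phosphorylase kinase, had up to 21 exons on a transcript and a span of 67116 bases on chromosome 13 from 7324237 to 7391352, minus strand, and its median intron of 1776 bases was longer than that of most microchromosome loci. GPI, the isomerase of the second step of glycolysis, had up to 17 exons on a transcript and a span of 25521 bases on chromosome 13 from 10919961 to 10945481, plus strand. PFKFB4, which sets the level of an activator of glycolysis, had up to 13 exons on a transcript and a span of 25423 bases on chromosome 14.

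Of the mitochondrial genes on microchromosomes, UQCRC1, a subunit of respiratory complex III, matched its reference exactly with 12 exons in 8607 bases on chromosome 14. DLAT, of the pyruvate dehydrogenase complex, shared a locus of 13661 bases with C11orf57 on chromosome 26.

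Ribosomal proteins stood at 24 of 51 (47.1%, 32.9 to 61.5%). RPL12, of the large ribosomal subunit, had 7 exons in 2754 bases on chromosome 19, with a median intron of 287 bases. RPL7A, of the same subunit, had up to 9 exons on a transcript and a span of 46582 bases, of which 1 intron took 42948. RPL5, on the large chromosome 10, had 7 exons in 9644 bases, with a median intron of 790 bases. Translation factors stood at 20 of 44 (45.5%, 30.4 to 61.2%). EIF4G3, a scaffold of translation initiation, had up to 23 exons on a transcript and a span of 88381 bases on chromosome 23, with 9 variants among 10 transcripts. EIF3B, a subunit of an initiation factor, had up to 19 exons on a transcript and a span of 16415 bases, and EEF2K, the kinase that slows elongation, up to 17 and a span of 22593 bases, both on chromosome 16.

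Among proteasome and ubiquitin genes, PSMC5, an ATPase of the proteasome, had up to 12 exons on a transcript and a span of 3671 bases on chromosome 29 from 942595 to 946265, plus strand, with a median intron of 159.5 bases. NEDD4, a ubiquitin ligase, had up to 26 exons on a transcript and a span of 44276 bases on chromosome 12, and PSMD1, a proteasome subunit, up to 21 and a span of 62393 bases on chromosome 11. Chaperone genes stood at 20 of 48 (41.7%, 27.6 to 56.8%). HSPA4, a chaperone of the cytosol, had up to 18 exons on a transcript and a span of 13413 bases and CANX, the calnexin of the endoplasmic reticulum, 14 exons and a span of 10485 bases, both on chromosome 15. DNAJC13, a co-chaperone on the large chromosome 6, had up to 36 exons on a transcript and a span of 46731 bases, with a median intron of 548 bases.

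Collagen and matrix genes stood at 17 of 50 (34%, 21.2 to 48.8%). COL5A1, a chain of a fibrillar collagen, had up to 20 exons on a transcript and a span of 111889 bases on chromosome 19 from 7721790 to 7833678, plus strand, and is one of the loci of over 100000 bases. TNC, the matrix protein tenascin, had up to 22 exons on a transcript and a span of 67817 bases on the same chromosome. Splicing and RNA binding genes stood at 30 of 67 (44.8%, 32.6 to 57.4%). PRPF8, the core protein of the spliceosome, had 42 exons in 17971 bases on chromosome 21 from 5744503 to 5762473, minus strand, with a median intron of 229 bases. On the large chromosomes, SNRNP200, a helicase of the same complex, had up to 43 exons on a transcript and a span of 17166 bases, with a median intron of 194 bases. Transcription factors of muscle stood at 13 of 35 (37.1%, 21.5 to 55.1%). STAT3, a factor driven by cytokines, had up to 23 exons on a transcript and a span of 10068 bases on chromosome 29 with a median intron of 221.5 bases. MKL2, a coactivator of serum response factor, had up to 15 exons on a transcript and a span of 69402 bases on chromosome 16, with a median intron of 1997 bases.

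Markers of cells other than muscle fibres stood at 11 of 16 (68.8%, 41.3 to 88.98%), with 17 of the 35 symbols not found. The 3 C1q genes of complement are among the 11 and are neighbours on chromosome 23, from 6335375 to 6343308. Counted as 1 they leave 9 of 14 (64.3%, 35.1 to 87.2%), and this interval includes the share of all named genes. Neighbours were counted as 1 only in this list, the one whose interval lay above that share. CSF1R, a receptor of macrophages, had 21 exons in 18325 bases on chromosome 15. ENG, of the vessel lining, matched its reference exactly with 14 exons in 8206 bases on chromosome 19 and a median intron of 92 bases. CDH5, a cadherin of the same cells, had up to 12 exons on a transcript and a span of 28648 bases on chromosome 13.

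Within lists of shared function, introns were also shorter on microchromosomes in 11 of the 12. For sarcomere and Z-disc genes the median over loci of their median intron was 499 bases on microchromosomes and 1449 bases on large chromosomes. For collagen and matrix genes it was 500 and 1053 bases, and for muscle transcription factors 569 and 1848 bases. Translation factors were close, with 685 and 709 bases. Splicing and RNA binding genes went the other way, with 684 bases on microchromosomes and 615 on large chromosomes. Over all named genes the medians were 661 and 1109 bases.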

How the data were processed

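The study sequenced RNA of 8 turkey breast muscle samples (4 PSE, 4 normal). The submitters' processing notes list TopHat, Cufflinks, HTSeq and DESeq but neither versions nor what each did. The genome build and the rule of curation were not stated. The authors deposited an annotation of 162644 exons, 41982 transcripts and 23108 loci, merged over the samples, with a class letter for each transcript's relation to a reference; coordinates and their other values are used as in that file. The authors also deposited a table of counts, whose 8 columns have no names. None could be tied to a sample, so all 8 were left out, and the planned description of counts was not made. Sequencing depth is therefore not given.

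Introns, exons and spans were computed here (Python 3.11.15, NumPy 2.4.6, pandas 2.3.3), with each distinct intron counted once per strand, and exact (Clopper-Pearson) 95% intervals came from SciPy 1.17.1. The code for the exon number, exonic bases (overlaps counted once), median intron, variants, span and chromosome group of a locus was tested on simulated annotations. Code for the other measures, among them the lengths of internal exons and of transcripts, was not tested in this way. Members, lists and measures were chosen with earlier results of these data known. Named loci carry a gene name and are, on chromosomes 11 to 30, the 5 each with most variants, longest span and most exons, and on chromosomes 1 to 10 the 3 each with longest span and most exons. The rule also took loci by largest count, which could not be done. In its place, up to 3 loci per list by exon number (1 on chromosomes 1 to 10) were taken, a choice made after the data were seen. The C1q genes and the uncovered stretches of spans were likewise looked at after the data were seen. Some loci that these rules name are not reported here. No sequences were used here.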

Additional observations from a re-analysis of the deposited data

How the results depend on the processing

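Of 75 recalculations of 7 results, 1 turned a ratio to the other side of 1. For each result, 8 of these only left out the transcripts credited to 1 sample, as described below. As small over large chromosomes, alternatives to the density ratio of 2.27 gave 1.65 to 2.20, to intron length (0.610) 0.585 to 0.618, to locus span (0.666) 0.651 to 0.679, and to exon number (1.02) 1.02 to 1.03. The difference in the share with a variant (2.39 percentage points) was 1.46 to 2.45. The ratio that turned was that of transcript length, 0.982 as reported and 1.00 with chromosome 9 counted as small and 18 left out. The cause was not tested. The same change, chosen for the lists after seeing the data, put 5 lists above the share of all named genes and 7 below, against 7 above and 5 below as reported. Leaving stretches in no transcript out of the span was also chosen after seeing the data and gave 0.671. Over the 20 small chromosomes, each set against the large group, the SD was 1.84 for density, 0.159 for transcript length and 0.123 for exon number, wider than each contrast itself, so that a change within it says nothing of stability.

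The annotation credits each transcript to 1 assembly, named like the samples but with a letter O for the zero. The PSE assemblies were credited with only 39 to 1070 spliced transcripts on the 30 chromosomes, so leaving 1 out could change little. Since each transcript is credited once, transcripts that a left-out sample shares with others may stay. Those credited to it are dropped even where other samples may hold them. Normal replicate 1 was credited with 9826 spliced transcripts and the next sample with 4314. Leaving out normal replicate 1 set an end of the ranges below for density, introns, transcript length, exon number and variants. The ranges thus do not show how far the results depend on each sample. Leaving out each sample's transcripts in turn gave 2.23 to 2.29 for density, 0.605 to 0.617 for introns, 0.663 to 0.677 for span, 0.947 to 0.987 for transcript length, 1.01 to 1.03 for exon number, 1.79 to 2.69 percentage points for variants and 7 lists each time. Recalculations that need counts were not run. No paired analysis was possible because the columns of the count table carry no sample names or numbers. The covered span stands in for chromosome length, introns over 50000 bases are not seen, and an assembled locus need not be a whole gene.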

Other observations

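The share of spliced transcripts on chromosomes 11 to 30, among those on the 30 chromosomes, was computed for each assembly that the annotation credits. In the PSE samples it was 41.9, 39.6, 40 and 35.9% for replicates 1 to 4, the last from only 39 transcripts (exact 95% interval 21.2 to 52.8%). In the normal samples it was 41.4, 39.5, 40.4 and 40.1%. These are shares of credited transcripts, not of all transcripts that a sample held, so they do not compare PSE with normal muscle. No test was made. Credited transcripts numbered 39 to 1070 in the PSE samples and 1400 to 9826 in the normal samples. How credit was given is not stated, so these numbers say nothing of depth.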
